A study of Mus musculus with 18 samples.

Results

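Expression of 10 genes known from stem cell biology was followed in mouse thyroid: Pou5f1, Nanog, Sox2, Klf4, Abcg2, Ly6a, Lgr5, Prom1, Sox9 and Nes. The members were all 15 gene probes of a mouse Agilent oligonucleotide array that carry 1 of these 10 gene names, of 41174 gene probes in all. No probe was found under an older alias alone. Each of 18 arrays held RNA of 1 laser-captured thyroid area of male C57BL/6 mice, labelled with Cy5, and a pooled reference RNA from several tissues of Swiss Webster mice, labelled with Cy3. The 4 groups were the central area after partial thyroidectomy (dissected central, n = 5), the peripheral area after it (dissected peripheral, n = 5), the central area of unoperated thyroid (normal central, n = 5) and the peripheral area of unoperated thyroid (normal peripheral, n = 3). The thyroid samples were all of 1 strain and no transgene is named in the labels. The labels give neither the age of the mice nor the time after surgery, and nothing in them says which areas came from the same animal. P-values therefore measure the spread between these samples, which may in part be technical. The reference, per the labels, was pooled from embryo, gonads of both sexes (ovary, testicle), lymphoid organs (thymus, spleen), brain, lung, heart, liver and kidney.

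Pou5f1, Nanog and Sox2 encode transcription factors that hold embryonic stem cells in the pluripotent state, and Klf4 is the factor that, with Pou5f1 and Sox2, is used to reprogram differentiated cells. The other members mark stem or progenitor cells of adult tissues: Abcg2 encodes a membrane pump that expels dyes and drugs, Ly6a encodes the surface antigen Sca-1, Lgr5 encodes a receptor for R-spondins that marks intestinal stem cells, and Prom1 encodes the membrane protein CD133. Sox9 encodes a transcription factor of cartilage, duct and hair follicle progenitors, and Nes encodes nestin, an intermediate filament of neural progenitors. Outside stem cells, Abcg2 and Ly6a are also expressed by endothelium, and Klf4 by many epithelial and vascular cells.

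A probe was called well above background by the scanner software's own flag, and it was tested where at least 3 of the 18 arrays carried that flag in Cy5. Signal of 8 of the 15 probes met this rule, standing for 6 of the 10 genes: Pou5f1, Klf4, Abcg2, Ly6a, Sox9 and Nes. None of the 15 probes was saturated on any array. Over all genes, 25.4% to 44.6% of gene spots were well above background in Cy5. That share was under 31% on 4 arrays (normal peripheral 1, dissected central 1, dissected central 2 and dissected peripheral 1).

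The sequences of 4 probes are shown, of which only that of the Pou5f1 probe is taken up with its values below. The other 3 span far more of the genome than their own length. The Pou5f1 probe ends in a run of G, the only stretch in capitals.
Abcg2 probe 1: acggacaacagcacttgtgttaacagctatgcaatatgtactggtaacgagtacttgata
Abcg2 probe 2: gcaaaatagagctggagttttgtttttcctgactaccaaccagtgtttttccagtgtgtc
Sox9 probe 3: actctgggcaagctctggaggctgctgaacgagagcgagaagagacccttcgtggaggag
Pou5f1: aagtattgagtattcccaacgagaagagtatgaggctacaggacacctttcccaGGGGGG

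All coordinates are those of the array's design, build mm7, as the scanner files give them. Abcg2 probe 1 lies at chr6:58658701-58660383 and Abcg2 probe 2 at chr6:58646466-58651396, both on the plus strand, and each 60-base probe spans more genome than its own length. Sox9 probe 3 lies at chr11:112892041-112892893 on the plus strand and likewise spans more than its own length. The Pou5f1 probe lies at chr17:33612047-33612107 on the plus strand, a span of 61 bases for a probe of 60. Sox9 probe 1 lies at chr11:112896540-112896599 and Sox9 probe 2 at chr11:112894739-112894798. The Klf4 probe lies at chr4:55541780-55541839 and the Ly6a probe at chr15:75075673-75075732, both on the minus strand, and the Nes probe at chr3:88094187-88094246 on the plus strand. Whether these lie in coding exons or untranslated regions was not analysed here, because no genome of that build was used.

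The pluripotency factors Nanog and Sox2, and the surface markers Prom1 and Lgr5, gave almost no signal in the captured areas. The Nanog probe (chr6:122750894-122750953) was well above background on 0 of 18 arrays, with a Cy5 intensity of 63 to 156. The Sox2 probe (chr3:34459231-34459290) was well above background on 0 of 18 arrays, with a Cy5 intensity of 70 to 148. The Prom1 probes (chr5:43314657-43314716 and chr5:43326736-43326795) were well above background on 0 of 18 arrays, with Cy5 intensities of 66 to 146 and 64 to 138. Over the arrays, the 99th percentile of the 153 negative-control spots ran from 73.7 to 188.1 in Cy5. Both Prom1 probes and the Nanog probe lay below that percentile on all 18 arrays, and the Sox2 probe lay above it on 2.

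Lgr5 was seen on a single array. Lgr5 probe 1 (chr10:114958025-114958084) had a Cy5 intensity of 258 on normal central 5, where it was well above background, and of 67 to 141 on the other 17 arrays. Lgr5 probe 2 (chr10:114969864-114969923) was well above background on 0 of 18 arrays, with a Cy5 intensity of 62 to 134 that included the same array. Sox9 probe 3 was likewise seen on 1 array, with 244 on dissected central 5, where it was well above background, and with 73 to 184 elsewhere. These probes were not tested for differences between groups.

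The weak signal of these 7 probes is to be read beside their values in the reference. Sox9 probe 3 lay above the 99th percentile of negative-control spots on 14 of 18 arrays in Cy5 and on 15 of 18 in Cy3. It reached the flag on 1 array in Cy5 and on 0 in Cy3. The reference RNA included embryo, brain and testicle, and Cy3 was well above background on 0 of 18 arrays for Nanog, Sox2, both Lgr5 probes, both Prom1 probes and Sox9 probe 3. No array of the series thus shows these probes giving a clear signal in the reference, and a transcript below the reach of the probe cannot be told apart from none. Sox9 gives a direct case: probes 1 and 2 of that gene were well above background on all 18 arrays, while probe 3 was so on 1.

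**Figure D1:**
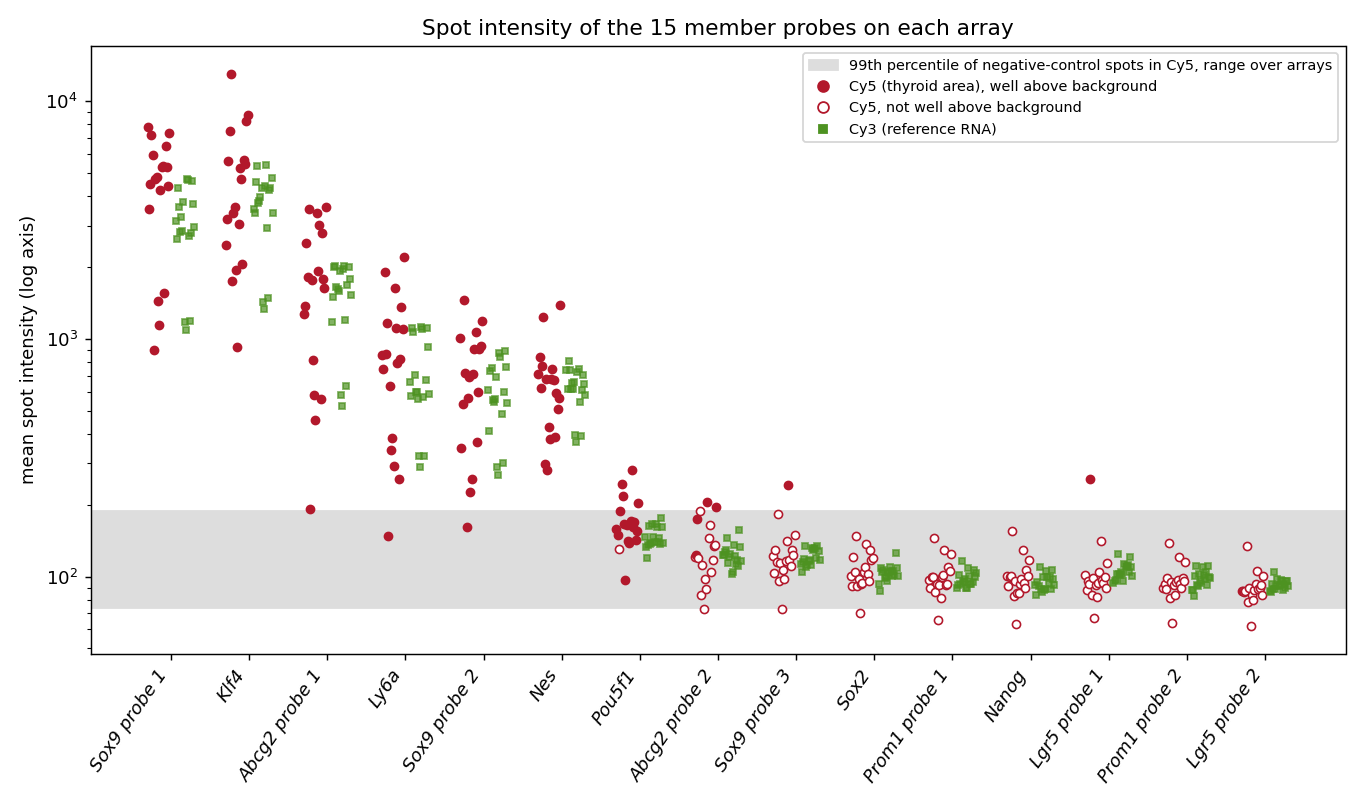
Mean spot intensity (log axis) of the 15 probes on each of 18 arrays, with Cy5 of the thyroid areas as circles (filled where well above background), Cy3 of the reference as squares, and in grey the range over arrays of the 99th percentile of negative-control spots in Cy5. The 6 probes that are filled on all 18 arrays are Sox9 probes 1 and 2, Klf4, Abcg2 probe 1, Ly6a and Nes, and the others lie largely within the grey band; intensities of different probes are not levels that can be compared.

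No member passed the test in any comparison between the groups. In the limma fit over all 19082 probes tested, 0 of the 8 member probes passed an adjusted p of 0.05 in any of the 4 pairwise comparisons, and the lowest adjusted p among them was 0.662. At an unadjusted p under 0.05, 0 of the 8 probes passed as well. For dissected against normal the background was the same, with 0% of all probes called in the central area and 0% in the peripheral area, although 997 and 1465 probes had an unadjusted p under 0.05. For central against peripheral, 0.461% of all probes were called in dissected thyroid and 0.215% in normal thyroid, all of them higher in the central area. In no pairwise comparison of a member probe did the arrays of the 2 groups separate fully. Over all probes the groups did not overlap for 0.97% of probes between dissected and normal central and 4.05% between dissected and normal peripheral areas, and for 1.52% and 4.5% between central and peripheral areas of dissected and of normal thyroid, so 0 of 8 is near the background. The change after dissection differed between the areas for 0 of the 8 probes, against 0% of all probes (1057 at an unadjusted p under 0.05). In the test for any difference among the 4 groups, 0 of the 8 member probes were called, against 0.818% of all probes.

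The precision of the differences is given by their 95% intervals. These are not adjusted for the number of probes and do not give the size of change that the test would have called. At its median over all probes, the 95% interval reached 0.40 on the log2 scale to either side of a difference after dissection in the central area and 0.47 in the peripheral area, or 1.32-fold and 1.38-fold. The intervals of the member probes after dissection were wider than these medians, except those of Abcg2 probe 2. The within-group SD of the member probes lay at percentiles 60.5 to 88.1 of all tested probes, with Abcg2 probe 2 at 28.1. Among the 8 member probes, the widest interval of a difference after dissection was that of Klf4 in the peripheral area, from -0.71 to 0.76 on the log2 scale. Over the 8 probes the median log2 difference after dissection was 0.17 in the central area (-0.01 over all probes) and -0.01 in the peripheral area (0.01 over all probes). Between central and peripheral it was 0.06 in dissected thyroid (-0.01 over all probes) and -0.23 in normal thyroid (0.01 over all probes).

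**Figure D2:**
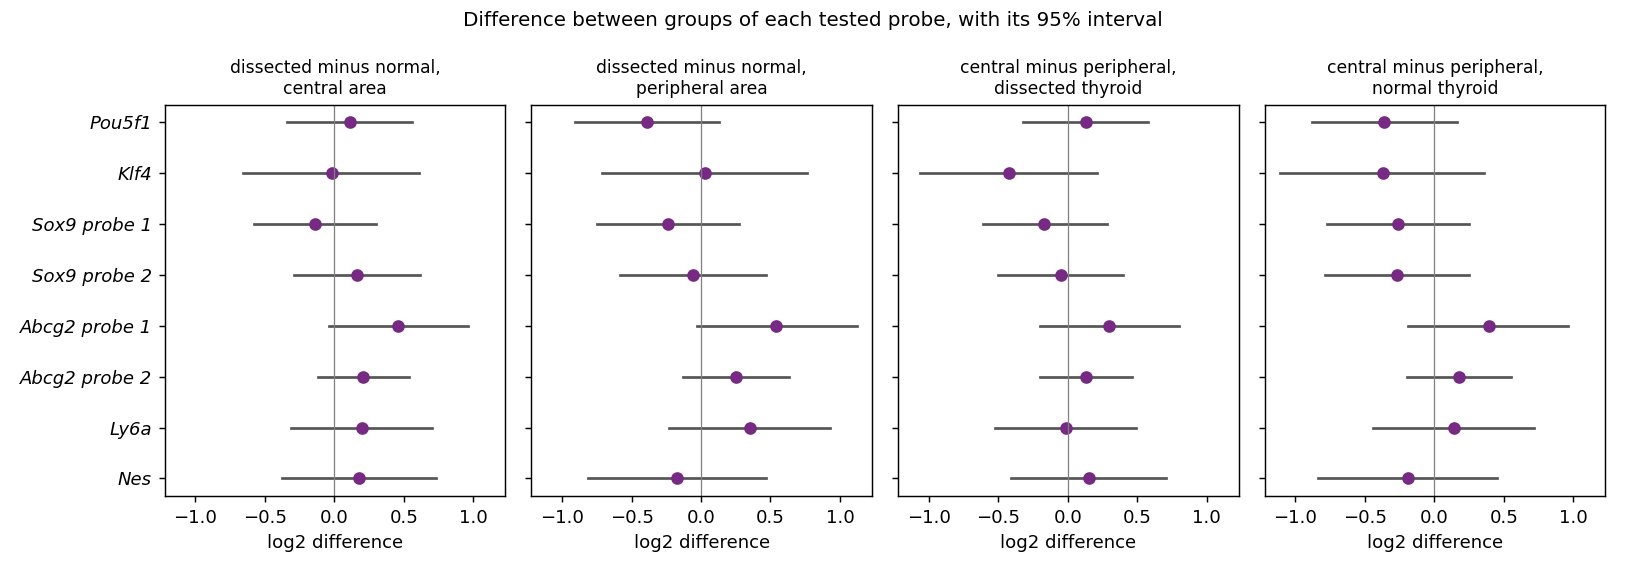
The log2 difference between groups (horizontal axis) of the 8 tested member probes, with the estimate of the limma fit as a point and its 95% interval as a line, in the 4 pairwise comparisons. Every interval includes 0, and the estimates of Abcg2 probe 1 after dissection (0.46 in the central and 0.54 in the peripheral area) lie farthest from it in the first 2 panels.

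Abcg2 had the lowest p-values of the members after dissection, in both areas, without passing the test. The log2 ratio of Cy5 over Cy3 for Abcg2 probe 1 was 0.22, -0.12, 0.77, -0.40 and 0.40 in dissected central arrays, against -0.47, -0.26, -0.13, -0.65 and 0.10 in normal central arrays. It was -0.24, 0.28, -0.42, -0.34 and 0.07 in dissected peripheral arrays, against -1.13, 0.00 and -0.88 in normal peripheral arrays. Of the 5 dissected central arrays, 3 lay above every normal central array, and the remaining values of those groups overlapped. In the periphery, 2 of the 3 normal arrays lay below all 5 dissected arrays and the remaining one lay among them.

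The mean log2 ratio of Abcg2 probe 1 was 0.17 ± 0.45 in dissected central and -0.28 ± 0.29 in normal central areas (SD, n = 5 each), a difference of 0.46 (SE 0.24, 95% interval -0.04 to 0.96). The limma p was 0.0695 before and 0.97 after adjustment over all probes. In the peripheral area the mean was -0.13 ± 0.29 in dissected (SD, n = 5) and -0.67 ± 0.59 in normal thyroid (SD, n = 3), a difference of 0.54 (SE 0.27, 95% interval -0.03 to 1.12). The limma p was 0.0627 before and 0.662 after adjustment. As folds these are 1.37 and 1.46. The test for any difference among the 4 groups gave Abcg2 probe 1 an unadjusted p of 0.042 and an adjusted p of 0.567. The order of the means was dissected central, dissected peripheral, normal central and normal peripheral, and each step in that order was smaller than the within-group SD of 0.40.

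The arrays lay on 5 slides, as read from the file headers, and 3 of them held arrays of all 4 groups. Within slides, Abcg2 probe 1 was higher in dissected than in normal central areas on 5 of 5 slides, by 0.14 to 0.90 on the log2 scale, and higher in dissected than in normal peripheral areas on 3 of 3 slides, by 0.28 to 0.89. These counts use the same log2 ratios as the fit and add no separate evidence. The share of all tested probes with 1 direction on every slide was not determined. With slide as a block the differences were 0.46 and 0.40, with adjusted p of 0.745 and 0.628 in limma, so the call did not change. The dim second probe gave the same sign. Abcg2 probe 2 differed by 0.21 in the central and 0.25 in the peripheral area after dissection (adjusted p 0.998 and 0.772 in limma), but it was well above background on 4 of 18 arrays only and on 0 of the 3 normal peripheral arrays. In the dissected peripheral group it was so on 1 of 5 arrays. Over the 18 arrays the 2 Abcg2 probes correlated at r = 0.63, and at 0.46 once group means were removed.

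Some arrays were dim in 1 channel or in both. On normal peripheral 1 the Cy5 intensity for Abcg2 probe 1 was 192, against 456 to 3589 on the other 17 arrays, while the Cy3 intensity was 1622. Before loess the log2 ratio of Abcg2 probe 1 there was -3.08 and after it -1.13. For the 8 member probes loess moved the log2 ratio of that array by 1.14 to 1.99, and of the other arrays by -1.21 to 0.38. On dissected central 1, dissected central 2 and dissected peripheral 1 the Cy5 intensity of this probe was 583, 456 and 558. The Cy3 intensity was 583, 523 and 635 on those 3 arrays, against 1178 to 2035 on the others. By Cy5 alone, the difference after dissection was 0.31 in the central and 0.45 in the peripheral area. Without the 4 arrays of lowest detection, normal peripheral 1 among them, the Abcg2 difference was 0.54 in the central and 0.34 in the peripheral area.

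**Figure D3:**
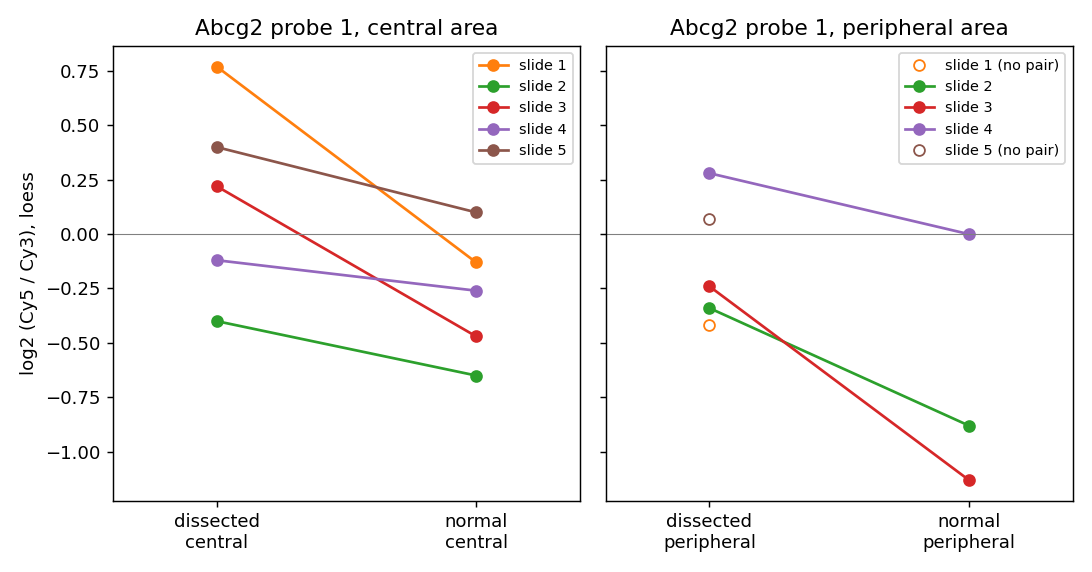
The log2 ratio of Cy5 over Cy3 for Abcg2 probe 1 (vertical axis) in dissected and normal areas, with lines joining arrays of 1 slide and open circles for arrays with no partner on their slide. Every line runs higher at the dissected end, on 5 slides in the central and 3 in the peripheral area, while the arrays of the groups overlap. How many other probes do so was not determined.

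The surface antigen gene Ly6a was measured on all 18 arrays, with group means from -0.21 to 0.14 and a within-group SD of 0.40 on the log2 scale. Its log2 ratio was 0.54, 0.15, 0.56, -0.25 and -0.36 in dissected central arrays, against -0.16, 0.29, 0.34, -0.70 and -0.12 in normal central arrays. It was -0.33, -0.04, 0.13, 0.12 and 0.84 in dissected peripheral arrays, against -0.35, 0.00 and -0.28 in normal peripheral arrays. The groups overlapped throughout, with dissected peripheral 5 the highest of all arrays and normal central 4 the lowest. The difference after dissection was 0.20 in the central area (95% interval -0.31 to 0.70) and 0.35 in the peripheral area (-0.23 to 0.93), with adjusted p of 0.998 and 0.798 in limma. Between central and peripheral it was -0.01 in dissected and 0.14 in normal thyroid.

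The reprogramming factor Klf4 showed the widest spread of the members. Its log2 ratio was 0.64, -0.47, -0.58, -0.49 and -0.31 in dissected central arrays, against -1.15, -0.25, -0.20, -0.15 and 0.65 in normal central arrays. It was 0.43, -0.10, -0.02, 0.43 and 0.16 in dissected peripheral arrays, against 0.85, -0.44 and 0.05 in normal peripheral arrays. Of the 5 dissected central arrays, 4 lay below all 5 dissected peripheral arrays, and dissected central 1 lay above them. The within-group SD of Klf4 was 0.52 on the log2 scale, at percentile 88.1 of all tested probes, whose median SD was 0.31.

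The Klf4 difference after dissection was -0.02 in the central area (95% interval -0.66 to 0.61) and 0.03 in the peripheral area (-0.71 to 0.76). Central minus peripheral was -0.42 in dissected thyroid (SE 0.30) and -0.37 in normal thyroid (SE 0.35), with adjusted p of 0.872 and 0.856 in limma. Within slides, Klf4 was higher in the central than the peripheral area on 1 of 5 slides in dissected and on 1 of 3 slides in normal thyroid.

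Pou5f1, the pluripotency factor also called Oct4, was flagged well above background on 17 of 18 arrays, at intensities close to the negative controls. Its Cy5 intensity was 97 to 282 with a median of 163, above the 99th percentile of negative-control spots on 17 arrays, and its Cy3 intensity was 120 to 176. Its log2 ratio was -0.08 to 0.53 in dissected central (median 0.26), -0.24 to 0.45 in dissected peripheral (median 0.06), -0.10 to 0.28 in normal central (median 0.11) and -0.17, 0.35 and 1.28 in normal peripheral arrays. The highest value stood on normal peripheral 1, the array of lowest detection, and all groups overlapped.

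The Pou5f1 differences after dissection were 0.11 in the central area and -0.39 in the peripheral area, with adjusted p of 0.999 and 0.728 in limma. Without normal peripheral 1 the peripheral difference was 0.01, by the scanner's processed log ratio it was -1.28 (adjusted p 0.507), and in the authors' deposited table of ratios -1.24. The probe ends in 6 G, as printed above, a property looked at after its values were seen. Of the 129 gene probes with such a run, 0.313% of all gene probes, 91.5% were well above background in Cy5 on at least 3 arrays, against 46.3% of all gene probes. The part of the G run in the Pou5f1 signal was not tested.

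Sox9 was measured well by 2 of its 3 probes. Sox9 probe 1 is printed in 10 spots per array, and its log2 ratio was 0.49, 0.14, -0.22, -0.26 and -0.02 in dissected central arrays, against 0.61, 0.27, -0.44, 0.39 and 0.00 in normal central arrays. It was 0.35, 0.72, -0.17, -0.05 and 0.11 in dissected peripheral arrays, against 0.11, 0.52 and 0.65 in normal peripheral arrays. The mean of normal peripheral arrays was the highest of the 4, at 0.43 ± 0.28 (SD, n = 3), within the range of the dissected peripheral arrays. The difference after dissection was -0.14 in the central and -0.24 in the peripheral area (95% intervals -0.58 to 0.30 and -0.75 to 0.27), with adjusted p of 0.998 and 0.855 in limma.

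The second Sox9 probe did not give the same sign throughout. Sox9 probe 2 differed by 0.16 in the central and -0.06 in the peripheral area after dissection (adjusted p 0.998 and 0.983 in limma). Between the areas both probes were lower in the centre, by -0.17 and -0.05 in dissected and -0.26 and -0.27 in normal thyroid for probes 1 and 2, with every 95% interval including 0. Over the 18 arrays the probes correlated at r = 0.44. The part of cartilage tissue, where Sox9 is abundant, was not tested: Col2a1, which encodes the main collagen of cartilage, differed by -0.21 between central and peripheral in dissected and by -0.32 in normal thyroid, without passing the test.

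Nestin, read by up to 10 spots of the Nes probe per array, had group means of -0.05 in dissected central, -0.20 in dissected peripheral, -0.23 in normal central and -0.03 in normal peripheral areas. Its log2 ratio was 0.36, 0.16, -0.05, -0.21 and -0.51 in dissected central arrays, against -0.58, 0.36, -0.79, -0.30 and 0.18 in normal central arrays. It was 0.00, -0.34, -0.59, -0.27 and 0.19 in dissected peripheral arrays, against 0.66, 0.04 and -0.79 in normal peripheral arrays. The highest and 1 of the 2 lowest arrays were both normal peripheral. The difference after dissection was 0.18 in the central and -0.17 in the peripheral area (95% intervals -0.38 to 0.73 and -0.81 to 0.47).

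**Figure D4:**
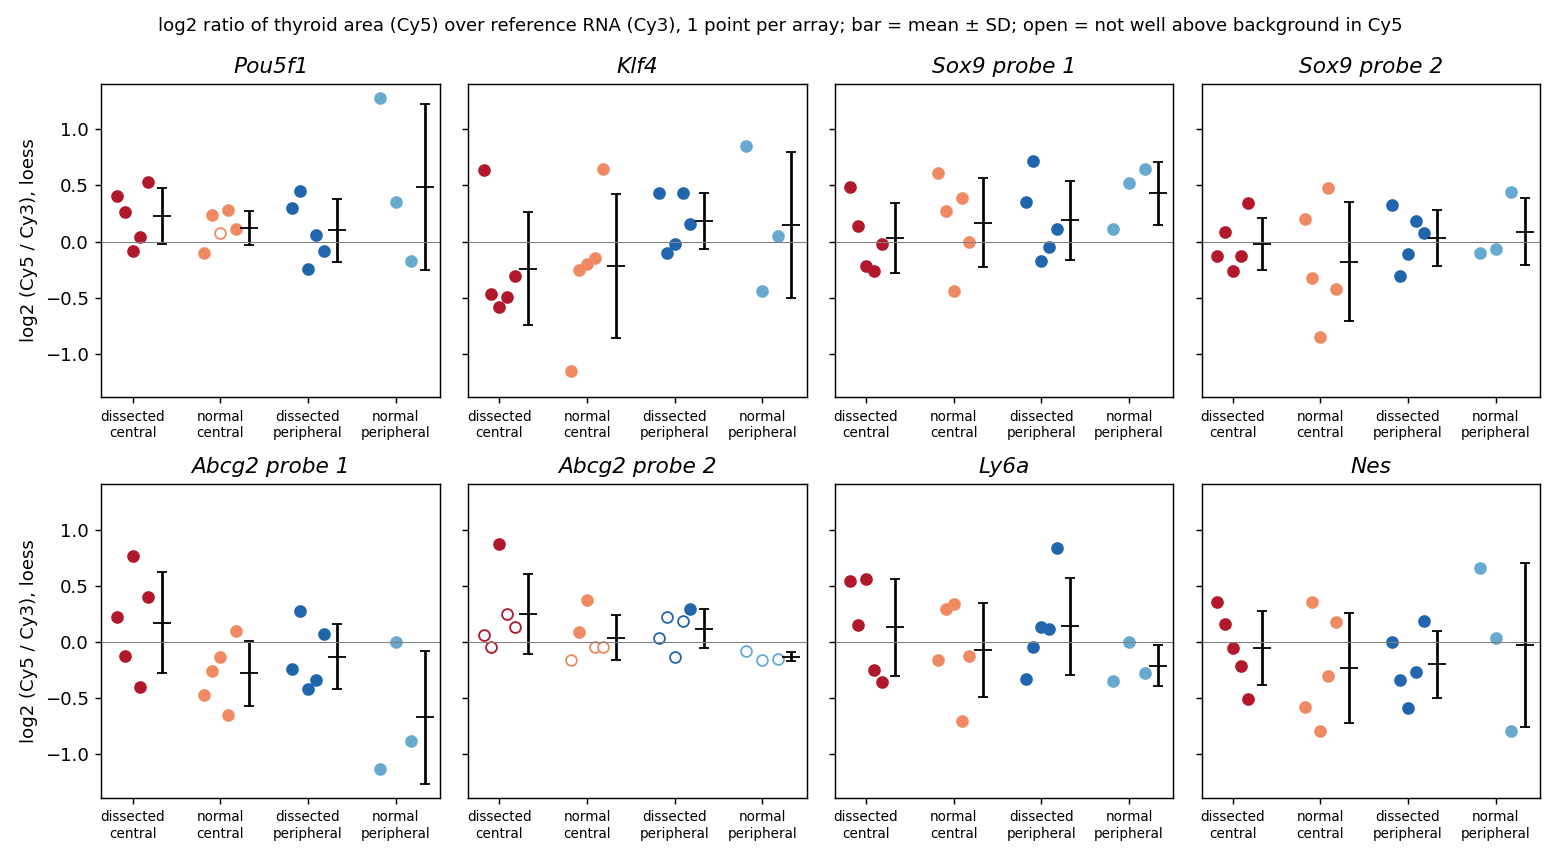
The log2 ratio of Cy5 over Cy3 (vertical axis) of the 8 tested member probes, 1 point per array in each of the 4 groups, with the mean ± SD as a black bar and open points where Cy5 was not well above background. The groups overlap in every panel, and Klf4 spans the widest range, from -1.15 to 0.85, followed by Abcg2 probe 1, from -1.13 to 0.77.

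The replicate spots show the spread between spots of 1 array, which share its scan and its loess curve. Errors common to a whole array are not seen in them. For Nes the SD over spots of 1 array was 0.03 to 0.06 on the log2 scale with a median of 0.044, against a within-group SD between arrays of 0.45. For Sox9 probe 1 it was 0.014 to 0.068 with a median of 0.042, against 0.35 between arrays. Spots of 1 array thus differed far less than arrays of 1 group did. The spread between arrays holds animals, captured tissue, amplification, labelling, scanning and normalization, which cannot be told apart here.

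**Figure D5:**
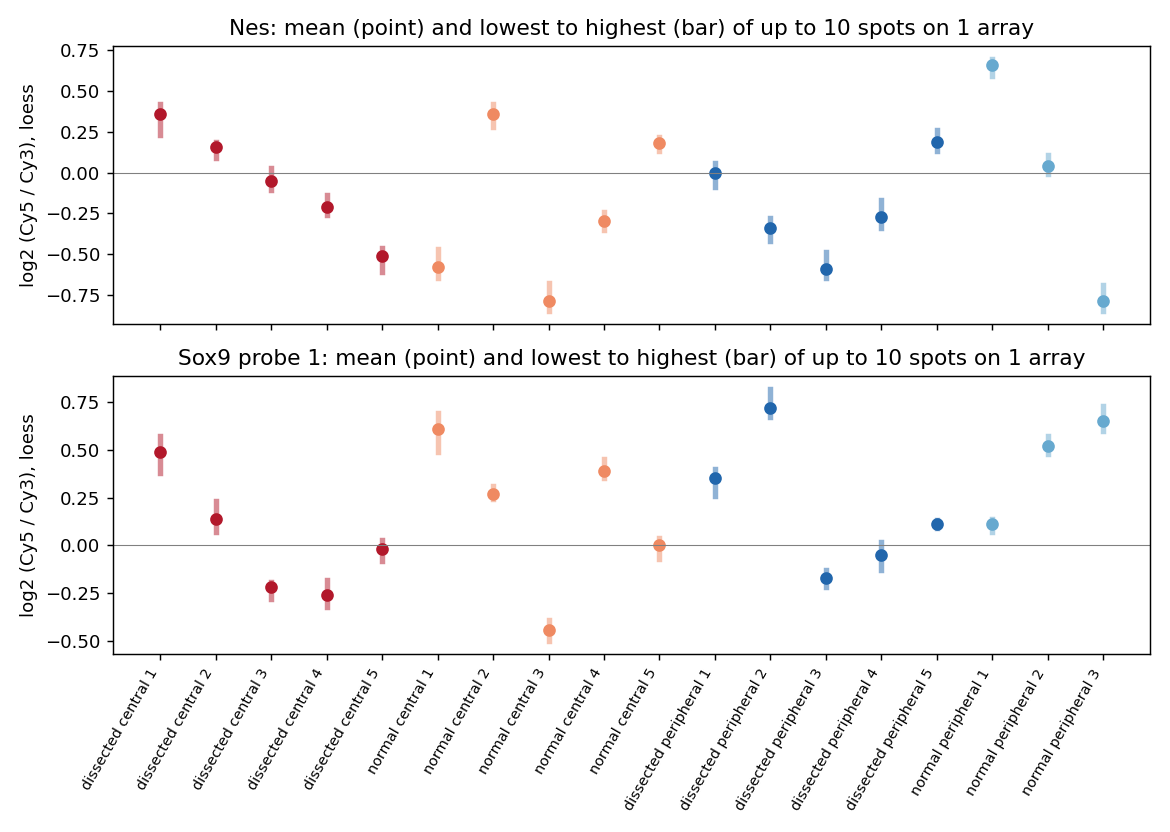
The log2 ratio of Cy5 over Cy3 (vertical axis) for up to 10 replicate spots of Nes and of Sox9 probe 1 on each of 18 arrays. The mean is a point and the lowest to the highest spot a bar. Bars are short against the distance between arrays of 1 group, as for the Nes values of normal peripheral 1 (0.59 to 0.70) and normal peripheral 3 (-0.85 to -0.69).

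For each member measured on all 18 arrays, the 3 other genes most like it were found by Pearson's r of the log2 ratios over the arrays. These are the extremes of all tested probes and carry no test, and where fewer than 3 are given the remaining probes carry only a sequence or clone identifier. Klf4 was most like Sprr2g, a small proline-rich protein of keratinising epithelium, at r = 0.90. Abcg2 probe 1 was most like Zcchc2 (r = 0.79), Cd302 (0.78) and Adgrf5 (0.77), an adhesion receptor of lung and endothelium. Ly6a was most like its family member Ly6c1 (r = 0.84), and in last place Egfl7 (0.80), a protein secreted by endothelium. Sox9 probe 1 was most like Fam160a2 (0.85) and Wdr35 (0.81), whereas the list of Sox9 probe 2 was Nkx2-2 (0.79), Mok (0.76) and Fcho2 (0.75), with no gene in common. Nes was most like Fndc3c1 (0.85), Slc43a3 (0.84) and Ano6 (0.81).

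Wider families of the members were read in the same fit. Of 37 genes of the pluripotency network, 35 were on the array and 21 were tested, and 0 were called in any comparison. Dppa3, Dppa4, Utf1, Lin28a and Nr0b1 were among the 14 that did not reach the detection rule. The lowest p-values in that list belonged to Esrrb, a nuclear receptor of naive pluripotency, and Lifr, the receptor of leukaemia inhibitory factor. Esrrb differed by -0.46 after dissection in the central area (adjusted p 0.871 in limma), and Lifr by -0.26 in the peripheral area (adjusted p 0.629).

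Among 32 tissue stem and progenitor markers, 27 were tested and 1 was called. Thy1, a surface glycoprotein of neurons, thymocytes and mesenchymal stromal cells, was higher in the central area in both states. Its mean log2 ratio was 0.37 ± 0.71 in dissected central and -1.37 ± 0.31 in dissected peripheral areas (SD, n = 5 each), a difference of 1.74 (SE 0.31, adjusted p 0.0135 in limma). It was 0.59 ± 0.44 in normal central (SD, n = 5) and -1.27 ± 0.65 in normal peripheral areas (SD, n = 3), a difference of 1.87 (SE 0.36, adjusted p 0.047 in limma). Leaving out each array in turn, the Thy1 call held in 18 of 18 fits in dissected but in 3 of 18 fits in normal thyroid, where the difference was 1.90 without normal peripheral 2 (adjusted p 0.124) and 1.52 without normal peripheral 3 (adjusted p 0.226). Over all 31 alternatives the difference stayed positive, and the call held in 27 in dissected and in 8 in normal thyroid. In dissected thyroid the call was lost with Cy5 alone (adjusted p 0.11) and with only the arrays of the groups compared (0.0669). It was also lost on each scan day alone, where fewer arrays entered the fit. The difference was 2.26 on scan day 1 and 1.39 on scan day 2 (adjusted p 0.828 in limma on day 2). In normal thyroid the settings that lost the call included slide as a block (1.68, adjusted p 0.12) and the replicate block (1.84, adjusted p 0.134). Markers of C cells, the calcitonin-producing cells of the thyroid, also differed between the areas, and their correlation with Thy1 was not determined. Of 11 tested C-cell genes, 9 were called higher in the central area of dissected and 7 in that of normal thyroid. Over all probes, 0.461% and 0.215% were called. In normal thyroid, calls over all probes ran from 1 to 78 when each array was left out in turn. The mean log2 ratio of the C-cell list was -1.22 to 1.04 in dissected central and -2.40 to -2.06 in dissected peripheral arrays. It was 0.68 to 1.53 in normal central and -1.70 to -0.92 in normal peripheral arrays. The part of C cells in the Thy1 difference was not tested, and in captured tissue more cells of a type and more RNA per cell cannot be told apart.

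The gene families of single members gave 0 calls each. Of 17 Sox genes, 10 were tested, with the lowest p-values for Sox15 (-0.55 between central and peripheral in normal thyroid, adjusted p 0.494 in limma) and Sox11 (0.40, adjusted p 0.666). Of 16 Klf genes, 15 were tested, with Klf11 (-0.31 after dissection in the central area, adjusted p 0.871) and Klf3 (-0.53 between central and peripheral in dissected thyroid, adjusted p 0.657) lowest. Of 12 ABC efflux transporter genes, 7 were tested. Abcb4, a phospholipid pump, differed by 1.09 between central and peripheral in dissected thyroid (adjusted p 0.089 in limma), and Abcc5 by 0.54 after dissection in the peripheral area (adjusted p 0.59).

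In the Ly6 family 9 of 12 genes were tested. Ly6g6e differed by -0.66 after dissection in the central and by 0.66 in the peripheral area (adjusted p 0.699 and 0.587 in limma). The difference between those changes was -1.32 (SE 0.29), with an unadjusted p of 0.000238 and an adjusted p of 0.827. Ly6g6d differed by -0.20 between central and peripheral in dissected thyroid (adjusted p 0.787). Of 9 genes of the R-spondin and Lgr axis, 5 were tested. Rnf43, a ubiquitin ligase that removes Wnt receptors, differed by -0.72 after dissection in the central area (adjusted p 0.71), and Rspo1, a ligand of Lgr receptors, by 1.44 between central and peripheral in dissected thyroid (adjusted p 0.36). Of 10 intermediate filament genes beside nestin, 5 were tested. The neurofilament gene Nefh differed by 0.72 between central and peripheral in normal thyroid (adjusted p 0.154) and Nefl by 0.50 in dissected thyroid (adjusted p 0.65).

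Marker lists of other cells that could lie in a captured area gave no call outside the C cells. Of 10 tested thyrocyte genes, 0 were called in any comparison, and the defining gene Tg was above the reference in every group, with a mean log2 ratio of 1.01 ± 0.27 in dissected central, 1.68 ± 0.80 in dissected peripheral (SD, n = 5 each), 1.34 ± 0.23 in normal central (SD, n = 5) and 1.51 ± 0.69 in normal peripheral areas (SD, n = 3). Endothelium (12 tested genes), pericytes and smooth muscle (9), cartilage (5), Schwann cells (7), airway and ductal epithelium (8), skeletal muscle (4), fibroblasts (6), leukocytes (6), parathyroid (1) and adipocytes (5) each had 0 genes called. A test of group means does not show other tissue on single arrays, and some lists varied widely within a group. The log2 ratio of Pth, the tested parathyroid gene, was -4.99 to 3.99 in normal central arrays. In dissected peripheral arrays the list mean was -0.95 to 1.68 for cartilage and -1.77 to 1.09 for airway and ductal epithelium. For adipocytes it was -1.40 to 1.30 there. Beside the Abcg2 and Ly6a values, the endothelial list had a mean log2 ratio of -0.24 to 0.23 in dissected central and -0.56 to 0.21 in normal central arrays, and of -0.33 to 0.15 in dissected peripheral and -0.13 to 0.08 in normal peripheral arrays. The endothelial receptor genes Ptprb and Flt1 differed after dissection in the central area by 0.69 and 0.54 without passing the test (adjusted p 0.871 each in limma). They had the 2 lowest p-values of the 12 tested genes, whose median difference after dissection was 0.08 in the central and -0.03 in the peripheral area, where Flt1 differed by -0.03. The part of endothelial content in the Abcg2 and Ly6a values was not tested.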

How the data were processed

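Each scanner file, as deposited, gives mean spot intensity and local background intensity for both dyes. Per the file headers they were written by Agilent Feature Extraction 9.5.1.1, whereas 8.5.1.1 is the version in the submitters' processing notes. Its log10 ratio of Cy5 over Cy3, background-subtracted and dye-normalized per the file headers, was used as an alternative. The authors also deposited a table of linear ratio values, whose making is not given in the sources used here. After centring each probe it followed the scanner ratios at r = 0.995 or more on every array, so its direction and scale were read from the values and its centring is not known. It holds 6 of the 8 tested member probes. No dyes were swapped, so ratios are all of the thyroid area over the reference.

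Here, intensities were background-corrected by normexp (offset 50) and normalized within arrays by loess in limma 3.58.1 under R 4.3.3, with control spots and outlier spots at weight 0. Control spots and 117 to 296 flagged outlier spots per array were left out, and spots of 1 probe were averaged. The 19082 probes, of 41174 for genes, flagged well above background in Cy5 on at least 3 of 18 arrays entered a fit of 4 group means with lmFit and eBayes. P-values were adjusted by Benjamini-Hochberg over all of them, with calls at 0.05, and all tests were two-sided. Precision is limited by the number of arrays. On simulated ratios with the spread of these 19082 probes, the dissected against normal comparison recovered 76% of 2-fold changes in the central area and 52% in the peripheral area. The simulation held 100 probes with a log2 change of 1 and 100 with a log2 change of 2. In the measured data 0 probes were called after dissection, so these shares do not give the recovery of a lone 2-fold change. The Schwann cell gene S100b differed by 0.96 (SE 0.23) after dissection in the peripheral area, with an adjusted p of 0.401 in limma.

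Probes were named through accession or symbol where a RefSeq table (GRCm38.p6) held them. The members and gene lists were chosen with earlier results of these data known. All 10 members are named. In each wider list the genes called in a pairwise comparison are named, or else the 2 with the lowest p. The alternatives tried were the scanner's log ratio, Cy5 alone, no background correction, other filters, 1 probe per gene, slide and replicate blocks, each scan day, only the groups compared, the deposited ratio table and each array left out. Leaving out the 4 arrays of lowest detection, and values within slides, were chosen after seeing the data.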

Additional observations from a re-analysis of the deposited data

Results flagged for a closer look

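The Klf4 log2 ratio of dissected central 1 was 0.64, far from the other 4 dissected central arrays, of which the nearest was at -0.31. It was 1 outlying array in 24 groups tested in this way, and chance marks about 5% of such groups. That array is among the 4 of lowest detection. Lgr5 probe 1, left out of the tests, had a Cy5 intensity of 258 on normal central 5, against a highest value of 141 on any other array. Sox9 probe 3, likewise left out, had a Cy5 intensity of 244 on dissected central 5, against a highest value of 184 elsewhere. The 99th percentile of negative-control spots was also high on these arrays, at 170.6 on normal central 5 and 162.2 on dissected central 5.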

How the results depend on the processing

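No member probe was called under any alternative run for it: 31 for each pairwise comparison, and 30 for the change after dissection and for any difference among the groups, with up to 2 fewer for probes that an alternative leaves out. The lowest adjusted p of a member was 0.189, for any difference among the 4 groups without normal peripheral 2. Abcg2 probe 1 kept its sign in both areas after dissection under each of them, at 0.31 to 0.60 in the central and 0.32 to 0.88 in the peripheral area. Signs of small differences did change, all without a call, and the cause was not tested. For dissected minus normal in the peripheral area, Klf4 was -0.02 by the scanner's log ratio, -0.04 by Cy5 alone, -0.01 without background correction, 0 with slide as a block, -0.07 with the replicate block and -0.04 on scan day 2, and Sox9 probe 2 was 0.04 with slide as a block. For central minus peripheral in dissected thyroid, Ly6a was 0.01 by the scanner's log ratio and 0.03 by the authors' deposited table. On scan day 1 normal peripheral 3 was the only normal peripheral array, so differences from that group rest on 1 array there. With that day alone, Pou5f1 was -0.20 in the central and 0.07 in the peripheral area for dissected minus normal. Between areas in normal thyroid Pou5f1 was 0.35. Ly6a was 0.03 between areas in dissected thyroid, and Sox9 probe 2 was -0.01 after dissection in the central area. Nes was 0.36 after dissection in the peripheral area and 0.25 between areas in normal thyroid. On scan day 2 alone, Klf4 was 0.20 after dissection in the central area, Abcg2 probe 2 was -0.14 and Sox9 probe 2 was 0.07 between areas in dissected thyroid, and after dissection in the peripheral area Sox9 probe 1 was 0.07 and Sox9 probe 2 was 0.12. Without the 4 arrays of lowest detection, Pou5f1 was 0.04 and Nes 0.15 between areas in normal thyroid, Sox9 probe 2 was 0.02 and Nes -0.01 between areas in dissected thyroid, and Nes was -0.03 in the central and 0.13 in the peripheral area after dissection.

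Leaving out each array in turn, some differences crossed 0. After dissection in the central area these were Klf4 (-0.26 to 0.19) and Sox9 probe 2 (0 to 0.33). In the peripheral area they were Pou5f1 (-0.72 to 0.01), Klf4 (-0.27 to 0.37), Sox9 probe 2 (-0.15 to 0.12) and Nes (-0.55 to 0.18). Between areas they were Abcg2 probe 2 (-0.02 to 0.21), Ly6a (-0.13 to 0.16) and Sox9 probe 2 (-0.14 to 0.02) in dissected, and Pou5f1 (-0.69 to 0.04) and Nes (-0.57 to 0.15) in normal thyroid. Over all probes, calls between areas ran from 48 to 181 in dissected and from 1 to 78 in normal thyroid, with 1 call left without normal peripheral 2 and 1 without normal peripheral 3. In deviations from group means, 9 of 24 same-numbered pairs correlated above 0.1 (-0.06 to 0.27, median 0.065), against 4 of 96 differently numbered pairs (median -0.01), and 13 of 18 arrays correlated best with an array of their own number. Of same-slide pairs, 10 of 24 exceeded 0.1. Arrays of the same number shared a slide except for normal peripheral 3, so number and slide cannot be told apart here. These correlations are a hint from the data and not from the design, and the numbers were not taken as a pairing. The main fit treats the arrays as independent, and its p-values do not allow for such correlation. With the replicate block no member was called, and Abcg2 probe 1 was 0.46 and 0.58 after dissection (adjusted p 0.775 and 0.409). Some dim probes took larger values, all without a call and with the cause not tested. After dissection in the peripheral area Abcg2 probe 2 was 1.23 by the scanner's log ratio and 1.26 in the authors' deposited table, and Pou5f1 -1.28 and -1.24. Depth of signal limits Nanog, Sox2, Lgr5, Prom1, Pou5f1 and Abcg2 probe 2, which lay near background.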
